A study of Rattus norvegicus with 6 samples.

Results

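Regions of the rat tenocyte genome that carried H4K8la in both conditions and neither H3K9la nor H4K16la in any are described here. The peaks of all 6 CUT&Tag libraries of the study were merged wherever they overlapped by at least 1 bp, which gave 176698 regions. Of these, 18439 held an H4K8la peak in control and an H4K8la peak with lactate. A total of 1348 of the 18439 had no peak in any of the 4 libraries of the other marks, and these are the H4K8la-only regions. They were chosen by the presence and absence of peaks. Their peak strength and the change between conditions are therefore descriptions, and no test was made of them.

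The cells were tenocytes from rat tendon, labelled wild type, the fibroblast-like cells that make and maintain the collagen matrix of tendon. Each of the 3 marks, H3K9la, H4K8la and H4K16la, was profiled once in cells without treatment (control) and once in cells given 20 mM lactate, so every group is 1 library and nothing between conditions has a replicate check. The sample titles and the treatment entries agree on which libraries are controls, although a free-text treatment field lists lactate for all 6 libraries. The labels used here do not give strain, sex, age, passage or the length of the lactate treatment. Tenocyte identity could not be checked, since peak positions on build rn7 were not assigned to genes.

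Histone lactylation is the attachment of a lactyl group, derived from lactate, to a lysine of a histone. H4K8la sits on lysine 8 of the histone H4 tail, a residue that can also be acetylated, and H4K16la lies further along the same tail. H3K9la is on another histone, H3. Lactylated histones are known mainly from promoters and enhancers of active genes. In CUT&Tag an antibody brings a transposase to the marked chromatin, and a peak is a place where more fragments were released than in the surrounding sequence.

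The lists held 61347 H4K8la peaks in control and 42787 with lactate, and 40681 to 62563 peaks for the other marks. The genome-wide background, which is how many fragments cover an average base as recovered from the lists, was 1.32 in H4K8la control and 1.55 with lactate, and 1.53 to 2.84 in the other libraries. H4K8la control was thus the shallowest library of the 6, and depth was not matched between libraries. All intervals in this text are Wilson 95% intervals, and like limits from a count of 0 they cover counting error only.

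H4K8la-only regions made up 7.31% (6.94 to 7.70) of the regions with H4K8la in both conditions. The corresponding share was 10.2% (9.82 to 10.6) for H3K9la, with 2208 regions, and 9.32% (8.90 to 9.76) for H4K16la, with 1645 regions. H4K8la was thus the mark that stood alone least often among the 3 in these lists. The intervals do not cover variation between libraries, so the difference between marks was not tested. At the other extreme, H3K9la and H4K16la were both called in both conditions at 7268 of the 18439 H4K8la regions (39.4%). Regions with a peak in a single other library numbered 2185. That library was H3K9la control at 1000 of them, H4K16la lactate at 510, H4K16la control at 341 and H3K9la lactate at 334.

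H4K8la without company was mostly found in 1 condition. In control, 25370 regions had H4K8la and no other mark in any library, and 5.31% (5.04 to 5.60) of these also had H4K8la with lactate. With lactate there were 17657 such regions, and 7.63% (7.25 to 8.04) of them had H4K8la in control. Where at least 1 other library had a peak, the share was 48.4% (47.9 to 48.9) of 35320 control regions and 69.0% (68.4 to 69.5) of 24783 lactate regions. Among the lone control regions, the median −log10 q was 3.50 for those kept with lactate and 2.65 for those not kept. Among the lone lactate regions it was 2.88 and 2.51. Where at least 1 other library had a peak, it was 6.44 and 3.81 in control and 4.44 and 2.99 with lactate. The shares kept thus compare sets of unequal strength.

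The H4K8la-only regions were weaker and narrower than H4K8la regions with other marks. The control peaks had a −log10 q from 1.34 to 14.2 with a median of 3.50, and the lactate peaks from 1.31 to 13.2 with a median of 2.88. H4K8la regions that also held another mark had medians of 6.44 in control and 4.44 with lactate. The authors' fold over local background had a median of 3.78 in control and 3.70 with lactate at the H4K8la-only regions, and of 4.46 and 4.17 at the others. Median peak width was 485.5 bp in control and 453 bp with lactate, against 771 and 593 bp. Over the whole lists the median width was 494 and 476 bp. In fragments, the summit of an H4K8la-only peak held a median of 13 in control and 12 with lactate, and at the lowest 6 and 7. Within the whole H4K8la control list the peaks of these regions lay at a median percentile of 48.4, and within the lactate list at 44.5. They were thus near the middle of each list.

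Width and strength rose step by step with the number of other libraries that had a peak. The median −log10 q of the weaker H4K8la peak was 2.58 with no other library, 2.86 with 1, 3.24 with 2, 3.78 with 3 and 5.39 with all 4. The median control width rose in the same order from 485.5 to 563, 644, 748 and 902 bp. The lactate width ran from 453 to 487, 519, 571 and 687 bp. Other libraries were counted by an overlap of at least 1 bp, which a wider peak meets more easily by construction. Its part in the rise in width, and in the narrower H4K8la-only peaks, was not tested.

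The 8 leading regions, ranked by the weaker of their 2 peaks, show how strong an H4K8la-only region became. First was chr3:77415627-77416308, with a −log10 q of 11.1 in control and 9.86 with lactate and folds of 7.12 and 7.46 over local background. Its local background was 1.59 times the genome-wide one in control and 1.00 times with lactate, and its 2 summits lay 23 bp apart. The nearest peak of another mark was 12941 bp away. The next, chr2:60541-61130, lay close to the start of its chromosome, with a −log10 q of 11.5 in control and 8.92 with lactate. Its folds of 8.20 and 7.07 stood on a local background equal to the genome-wide one in both libraries. No other mark was called within 54969 bp and no further H4K8la peak within 80879 bp.

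The third region was of another kind. At chr18:54499874-54500346 the −log10 q was 9.47 in control and 7.96 with lactate, but the local background was 10.3 and 4.55 times the genome-wide one, and the folds were only 3.36 and 4.10. Its summits held 48 fragments in control and 32 with lactate, and another H4K8la peak lay 815 bp away. At chr20:3219184-3220055 the −log10 q was 7.98 and 7.10, again over a raised background of 4.98 and 3.61 times.

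Of the remaining leading regions, chr3:56278996-56280088 had a −log10 q of 7.30 in control and 6.75 with lactate, and chr15:19879683-19880550 had 7.47 and 6.50. At chr13:103203734-103204454 the 2 values were nearly equal, 6.75 and 6.78. At chr6:42162681-42163096 the lactate peak was the stronger, 7.65 against 6.65. A peak of another mark lay within 1 kb of 3 of the 8, those on chromosomes 13, 6 and 15, at 662, 456 and 571 bp. By −log10 q, 6 of the 8 were thus stronger in control, with the widest gap on chromosome 2. The fold over local background was instead higher with lactate at 7 of the 8, all but the one on chromosome 2. Relative to the genome-wide background of each library, the fragment count at the summit was lower with lactate at all 8. Over all 1348 regions, the −log10 q was higher in control at 855 (63.4%). The fold was lower with lactate at 50.1% of the 1348, and the summit count at 77.2%. Over all 18439 regions with both H4K8la peaks, these shares were 59.1% for the fold and 85.7% for the summit count.

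**Figure D1:**
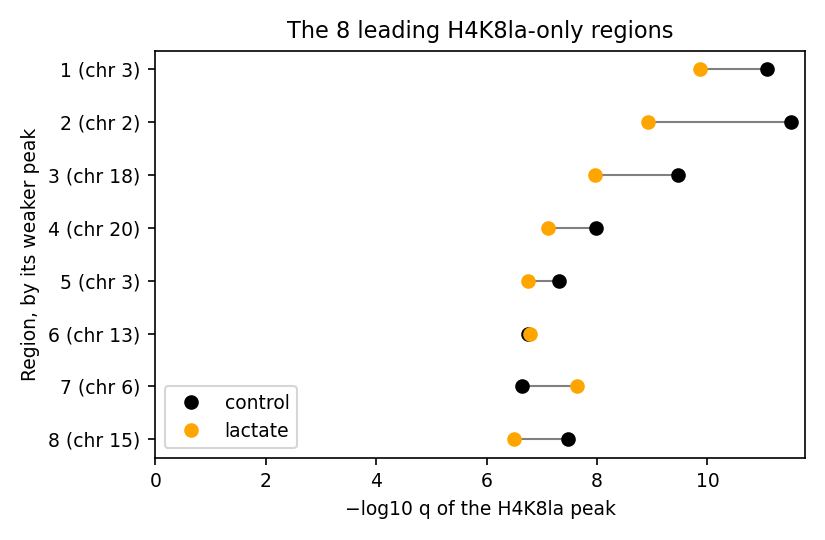
The −log10 q of the H4K8la peak in control (black) and with lactate (orange) at the 8 leading H4K8la-only regions, 1 line per region in order of its weaker peak, 1 library per condition. The weaker peak runs from 9.86 at the top to 6.50 at the bottom, and control is the higher value in 6 of the 8.

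The highest control value, chosen after the values were seen, was 14.2 at chr4:154043895-154044599, where the lactate peak had a −log10 q of 4.63. The highest lactate value was 13.2 at chr19:51507635-51508808, where the control peak had 6.14. At least 1 of the 2 peaks reached a −log10 q of 5 at 385 of the 1348 regions, and both did at 52.

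How often H4K8la stood alone depended steeply on strength. Where the weaker H4K8la peak had a −log10 q below 2, 280 of 1231 regions (22.7%, 20.5 to 25.2) had no other mark. Between 2 and 3 the share was 14.3% (13.3 to 15.4), from 643 regions, and between 3 and 5 it was 5.44% (4.93 to 6.01), from 373. Between 5 and 10 it was 1.06% (0.813 to 1.39), from 52 of 4886 regions. At 10 and above none of 978 regions was without another mark, which allows a share of up to 0.307% (3 counts of the total); the Wilson upper bound is 0.391%.

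The other marks showed the same fall. At a weaker −log10 q of 2 to 3, 17.8% of H3K9la regions and 17.8% of H4K16la regions stood alone, and at 5 to 10 the shares were 1.98% and 1.04%. H4K8la had the lowest share of the 3 in each class below 5. Below 2 its interval (20.5 to 25.2) overlapped those of H3K9la (22.5 to 26.8) and H4K16la (22.9 to 27.7). At 5 to 10 its share was within 0.1 percentage points of that of H4K16la.

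**Figure D2:**
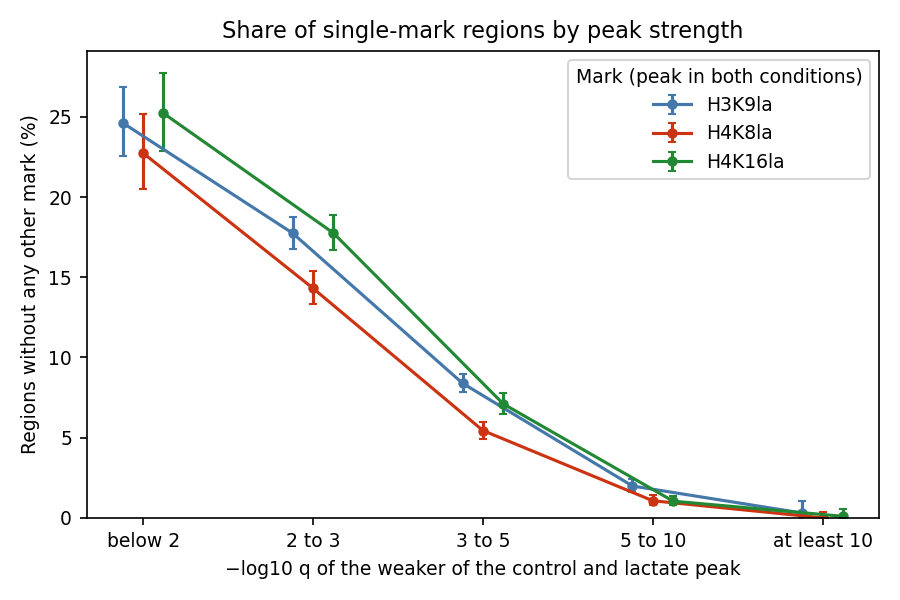
Percent of regions with no peak of any other mark (vertical axis), among regions with a peak of the named mark in both conditions, by the −log10 q of the weaker of the control and lactate peak (horizontal axis, 5 classes). Points are shares with Wilson 95% intervals, and the H4K8la share falls from 22.7% below 2 to 0 of 978 regions at 10 and above.

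With a higher threshold for all 6 lists, regions of this kind still appeared, but most of them were not among the 1348. When only peaks with a −log10 q of at least 5 counted, 494 regions had H4K8la alone in both conditions, and 442 of these (89.5%) overlapped a weaker deposited peak of another mark. The remaining 52 were the H4K8la-only regions with both peaks at 5 or above. At a threshold of 10 there were 115, and all 115 overlapped such a weaker peak.

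Between conditions, the 2 measures of enrichment gave different pictures. At 675 of the 1348 H4K8la-only regions (50.1%, 47.4 to 52.7) the fold over local background was smaller in the lactate library. The median log2 difference was −0.0025, with a middle 50% of −0.23 to 0.19. Over all 18439 regions with both H4K8la peaks, the fold was smaller with lactate at 59.1%. A fold at least 1.5 times higher with lactate was seen at 37 regions (2.74%), where the share over all 18439 regions with both H4K8la peaks was 2.27%. It was at least 1.5 times lower at 65 (4.82%), where the share over all was 7.0%. By strength of the weaker peak, the fold was lower with lactate at 56.1% of the H4K8la-only regions below a −log10 q of 2. At 2 to 3 it was lower at 54.6%, at 3 to 5 at 42.1% and at 5 to 10 at 19.2% of the 52. At the H4K8la regions with other marks, the shares also fell in the same order of classes, from 69.0% to 65.7%, 59.3% and 55.1%. Presence in both lists was part of the rule, so nothing is read from these counts.

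Relative to the genome-wide background of each library, the summit pileup was lower with lactate at 1041 regions (77.2%, 74.9 to 79.4), against 85.7% over all 18439. The median log2 difference at the H4K8la-only regions was −0.35. Their pileup was at least 1.5 times lower at 420 regions (31.2%, against 46.3% over all 18439). It was at least 1.5 times higher at 31 (2.30%, against 1.61% over all). The local background moved in the same direction, lower with lactate at 996 regions (73.9%, against 86.1% over all 18439). Its median log2 difference at the H4K8la-only regions was −0.29. Control was the shallower library of the pair, and the part of depth in these differences was not tested. At the H4K8la regions with other marks, the median log2 difference was −0.08 for the fold, −0.56 for the pileup and −0.50 for the local background.

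**Figure D3:**
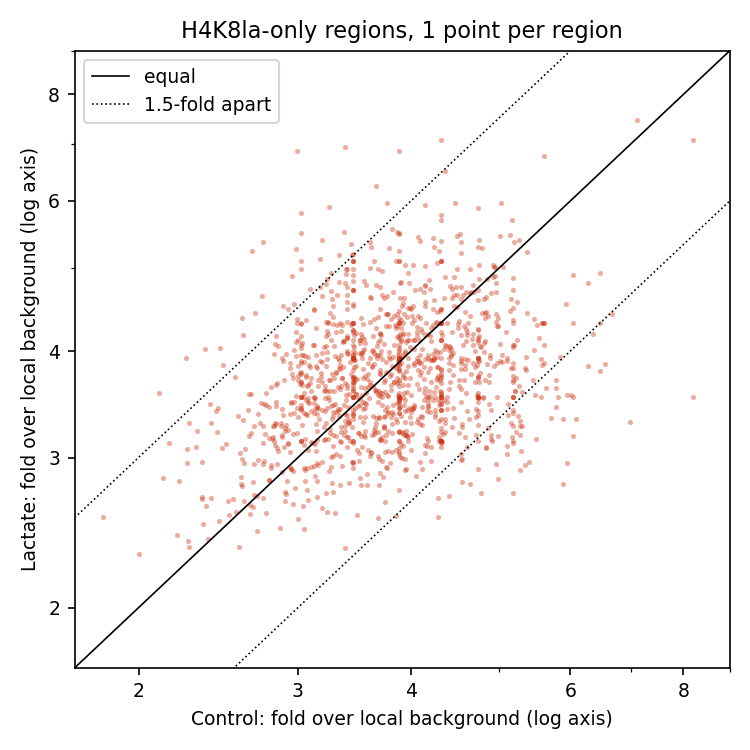
Fold over local background in control (horizontal, log axis) against lactate (vertical, log axis) for the 1348 H4K8la-only regions, 1 point each, 1 library per condition. The solid line marks equal values and the dotted lines a 1.5-fold difference; 37 points lie at or above the upper dotted line and 65 at or below the lower one.

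The local background separated the regions into quiet and busy surroundings. In control it was below 1.5 times the genome-wide level at 510 of the regions (37.8%), 1.5 to 3 times at 440 (32.6%) and at least 3 times at 398 (29.5%). Where another mark was present, only 12.6% lay in the lowest class and 46.7% in the highest. In quiet surroundings the median log2 pileup difference between lactate and control was −0.06, and the next H4K8la peak was a median of 11474 bp away. In the busiest class the pileup difference was −0.74, with 96.5% of the regions lower in the lactate library, and the next H4K8la peak was 2094.5 bp away. There the median local background was 4.39 times genome-wide in control and 2.61 times with lactate, while the median log2 fold difference was 0.05. These classes were cut on the control library itself, which by construction favours a fall toward lactate in the busiest class. With classes cut on the lactate local background instead, a split made after seeing the data, the median log2 pileup difference was −0.23 below 1.5 times and −0.83 at 3 times or more. H4K8la regions with other marks gave −0.08 and −0.75 with the control classes and −0.39 and −0.73 with the lactate classes.

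The highest local background among the H4K8la-only regions was at chr19:23370462-23370980, named after the values were seen. It was 20.1 times the genome-wide level in control and 6.91 times with lactate. The peak there had a fold of only 2.00 in control and 2.31 with lactate, with summits of 54 and 26 fragments. A local background of at least 5 times was found at 152 regions in control (11.3%) and at 8 with lactate (0.593%), and at 13.7% and 1.04% of the H4K8la regions with other marks.

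Single regions changed in both directions. Among the 385 with a −log10 q of at least 5 in at least 1 library, the largest rise in fold was at chr17:32373532-32374123, from 3.00 in control to 6.87 with lactate. Its control summit held 6 fragments and its lactate summit, 300 bp away, held 19. At chr17:22339808-22340487 the fold went from 3.38 to 6.93, with 7 and 17 fragments. The 2 summits there lay 19 bp apart, but the peaks overlapped by only 61 bp. Both regions lay on chromosome 17 in quiet surroundings, and they were also higher with lactate relative to the genome-wide background, by 1.43 and 1.05 on the log2 scale.

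The next 2 in rank were higher by fold but hardly by pileup. At chr10:106473697-106474186 the fold went from 2.67 to 5.24 with 15 and 19 fragments at the summit, and at chr2:45187070-45187851 from 2.74 to 5.36 with 14 and 16. The local background fell there from 3.79 to 1.82 times and from 3.39 to 1.40 times the genome-wide level. Control and lactate summits lay 123 bp apart on chromosome 10 and 245 bp apart on chromosome 2.

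The largest fall was at chr1:188925091-188926211, where the fold went from 8.20 in control to 3.53 with lactate. Its control summit held 18 fragments and its lactate summit 8. At chr10:51709439-51710821 the fold went from 6.99 to 3.30, and at chr12:20518189-20518744 from 5.89 to 2.79. At chr19:54317895-54318957 it went from 5.94 to 2.96. All 4 were also lower relative to the genome-wide background, by log2 differences of −0.68 to −1.40. The overlap of the 2 peaks was slight at 3 of them, with 83 bp on chromosome 1, 18 bp on chromosome 10 and 62 bp on chromosome 19. Control and lactate summits lay 231, 485 and 731 bp apart at these 3, and 126 bp apart on chromosome 12. The values compared are thus from different positions.

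Control and lactate peaks of an H4K8la-only region often covered only part of each other. The shared stretch had a median of 310 bp and ran from 1 to 973 bp. It made up at least 50% of the shorter peak at 1004 regions (74.5%), and 1 peak lay inside the other at 371 (27.5%). Summits were a median of 196 bp apart and within 100 bp at 384 regions (28.5%). Among H4K8la regions with other marks, 87.6% reached the 50% overlap, and the median summit distance was 168 bp.

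The lactate peak was the narrower at 743 regions (55.1%, 52.5 to 57.8), with a median log2 width difference of −0.09. Where other marks were present it was the narrower at 67.5%, with a median of −0.30. Within classes of strength the width gap between the sets was small for the weakest lactate peaks. Below a weaker −log10 q of 2, the median lactate width was 411.5 bp at H4K8la-only regions and 418 bp at the others, and the control width 438.5 and 521 bp. At 2 to 3 the lactate widths were 445 and 486 bp. At a weaker −log10 q of 3 to 5, the median control width was 535 bp at H4K8la-only regions and 746 bp at the others, and the lactate widths were 502 and 579 bp. At 5 to 10 they were 592.5 against 936 bp and 589.5 against 720 bp.

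The 2 widest H4K8la-only regions owed their width to control. At chr14:7364034-7365997 the control peak spanned 1964 bp and the lactate peak 738 bp, yet the lactate peak was the stronger, with a −log10 q of 4.09 against 2.28. At chr11:29456238-29458161 the widths were 1924 and 600 bp and the −log10 q 6.96 and 3.55.

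Most H4K8la-only regions had another mark within 10 kb, as did most H4K8la regions with other marks, counted beyond their edges. The nearest peak of H3K9la or H4K16la lay a median of 3515.5 bp away. It was within 1 kb at 330 regions (24.5%, 22.3 to 26.8) and within 10 kb at 1138 (84.4%), a share close to that of H3K9la-only regions (83.9%) and above that of H4K16la-only regions (77.4%). Within 1 kb the shares were 16.9% (15.4 to 18.6) for H3K9la-only and 13.9% (12.3 to 15.6) for H4K16la-only regions. The lists counted as other marks are nearly equal in total size for the 3 single-mark sets, 207378 to 212581 peaks. At H4K8la regions with other marks, a further peak of another mark lay within 10 kb of the edge at 79.5%. It lay within 1 kb at 10.5% (10.1 to 11.0). H3K9la control was within 1 kb of 183 of the H4K8la-only regions, H4K16la lactate of 121, H3K9la lactate of 92 and H4K16la control of 88.

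Further H4K8la peaks were close as well. One lay within 1 kb of 207 H4K8la-only regions (15.4%, 13.5 to 17.4). H3K9la-only regions had a further H3K9la peak that close at 7.52% (6.49 to 8.69) and H4K16la-only regions a further H4K16la peak at 5.11% (4.14 to 6.28). The order of the marks was the same at regions with other marks. There a further peak of the same mark was that close at 9.66% for H4K8la, 6.36% for H3K9la and 3.51% for H4K16la. The neighbourhood varied with strength. From the weakest class, below 2, to the class of 5 to 10, the share with a further H4K8la peak within 1 kb was 11.8%, 14.5%, 17.7% and 28.8%. For a peak of another mark it was 23.6%, 23.0%, 26.3% and 34.6%. The class of 5 to 10 held only 52 regions. At H4K8la regions with other marks, a further H4K8la peak was that close at 11.6%, 11.6%, 10.2% and 7.99% in these classes. A further peak of another mark was that close there at 13.1%, 13.8%, 11.3% and 7.59%. Peaks that touch are part of such a region itself, so its neighbours are counted from a wider edge.

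**Figure D4:**
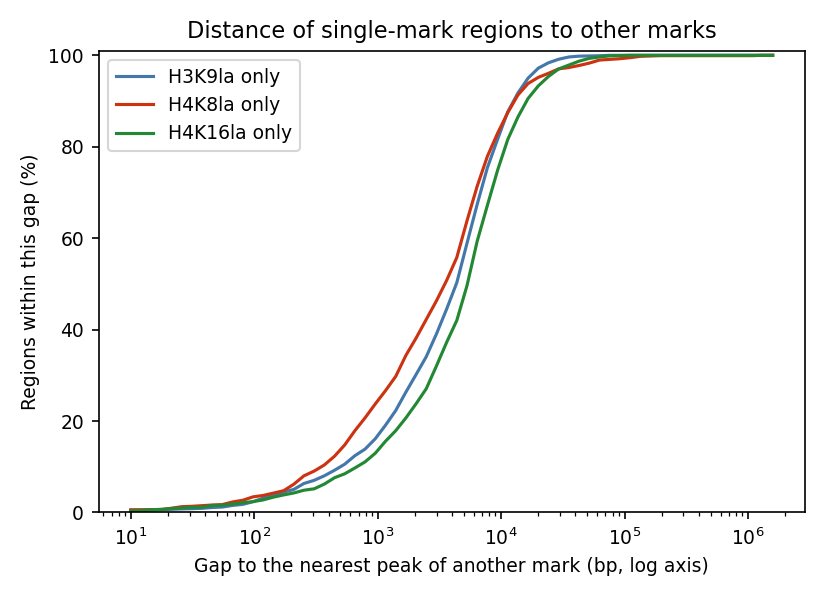
Percent of single-mark regions (vertical axis) with a peak of any other mark within a given gap (horizontal axis, bp, log axis), for regions with H4K8la only, H3K9la only and H4K16la only, each with its peak in both conditions. The H4K8la curve is the highest of the 3 around 1 kb, where it has reached 24.5%. The H3K9la curve is there at 16.9% and the H4K16la curve at 13.9%.

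A few regions were remote from the other marks. The gap was over 20 kb at 65 regions (4.82%, 3.80 to 6.10), against 2.81% (2.20 to 3.58) of H3K9la-only and 6.69% (5.58 to 8.00) of H4K16la-only regions. It was over 50000 bp at 23, spread over 14 chromosomes, or 1.71% (1.14 to 2.55), against 0.136% (0.0462 to 0.399) and 0.912% (0.553 to 1.5). The most remote was chr13:18394977-18395882, with a −log10 q of 6.64 in control and 3.24 with lactate and summits of 13 and 10 fragments. The nearest peak of another mark was 1156531 bp away. The stretch free of H3K9la and H4K16la around it spanned 2.62 Mb and held 4 H4K8la peaks in control and 4 with lactate. Only this region had both.

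Few H4K8la-only regions lay within 10 kb of another. The median distance from one to the next was 881202 bp, and 26 of the 1348 (1.93%) formed 13 pairs within 10 kb. No set with the same number of regions was compared, so nothing is read from this spacing. The closest pair was on chromosome 10, from 14956854 to 14957568 and from 14957903 to 14958790, 334 bp apart. Its −log10 q was 2.88 in control and 2.06 with lactate in the first region, and 5.97 and 1.66 in the second.

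The X chromosome stood apart from the autosomes. Of the 268 X-linked regions with both H4K8la peaks, 41 had no other mark, 15.3% (11.5 to 20.1). On the autosomes it was 1305 of 18168, 7.18% (6.82 to 7.57), and single autosomes ran from 6.12% on chromosome 10 to 10.0% (7.76 to 12.8) on chromosome 19. X-linked peaks were weaker, with a median weaker −log10 q of 3.24 against 3.88. Within classes of strength the X share was 23.7% (16.4 to 33.1) against 14.1% (13.1 to 15.1) at 2 to 3 and 11.0% (6.25 to 18.6) against 5.36% (4.85 to 5.92) at 3 to 5. Below 2 it was 28.6% (13.8 to 50.0) against 22.6% (20.4 to 25.1), from only 6 of 21 regions.

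H4K16la also stood alone more often on X, at 18.6% (14.5 to 23.5) against 9.17% (8.75 to 9.61) on autosomes. For H3K9la the intervals overlapped, 11.3% (7.75 to 16.1) against 10.2% (9.81 to 10.6). At the X-linked H4K8la regions, H3K9la was called in control at 64.6% (58.7 to 70.0) and with lactate at 46.3% (40.4 to 52.2). On autosomes it was called at 79.2% (78.6 to 79.8) and 65.4% (64.7 to 66.1). H4K16la was called on X at 57.8% (51.9 to 63.6) in control and 54.5% (48.5 to 60.3) with lactate, against 63.9% (63.2 to 64.6) and 68.9% (68.2 to 69.5). H3K9la lists held fewer X peaks, 1.54% and 1.84% of all their peaks, than H4K8la lists, 2.28% and 2.92%. In the H4K16la lists the X share was 2.48% in control and 2.41% with lactate.

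**Figure D5:**
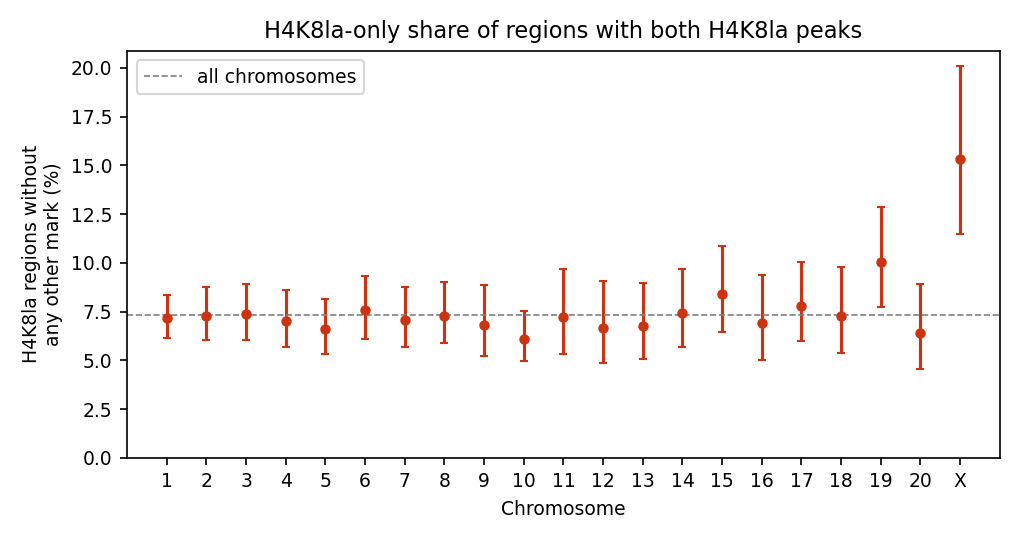
Percent of regions with both H4K8la peaks that have no other mark (vertical axis), by chromosome (horizontal axis), with Wilson 95% intervals; the dashed line is the share over all chromosomes, 7.31%. X lies at 15.3% and chromosome 19 at 10.0%, and the intervals of these 2 lie above the line; chromosome Y, with 3 regions, is not drawn.

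The 41 X-linked regions were led by chrX:19377320-19378291, named after the values were seen, with a −log10 q of 6.60 in control and 5.37 with lactate. The fold was lower with lactate at 27 of the 41 (65.9%), with a median log2 difference of −0.09. Over all 18439 regions with both H4K8la peaks it was lower at 59.1%, so nothing is read from these 27. From the 41 X-linked regions, the nearest peak of another mark was 21 to 106079 bp away. On chromosome Y, 2 of the 3 regions with both H4K8la peaks had no other mark, chrY:8639641-8640129 and chrY:14119498-14120154. Their summits held 8 fragments each in control and 11 and 13 with lactate.

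At the edge of the rule, the smallest overlap of a control and a lactate peak was 1 bp, at chr1:4605518-4606294, with a −log10 q of 3.76 and 4.99. The smallest gap to another mark was 1 bp, at chr4:61853509-61854494, with 2.65 and 2.02. Just outside the rule lay chr13:21369128-21370184, with 5.82 and 4.39, where an H3K9la control peak with a −log10 q of 1.42 overlapped an H4K8la peak by 3 bp. In all, 47 H4K8la-only regions (3.49%) had a peak of another mark less than 100 bp from their edge.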

How the data were processed

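Narrow peaks on build rn7 were deposited in a separate list for each of the 6 libraries. FastQC, cutadapt, Bowtie2, deepTools and MACS2 are named in the submitters' processing notes, without versions or settings. In the authors' lists the fold is a ratio of summit pileup to local background, −log10 p and −log10 q are the peak caller's statistics, and the deposited score is 10 times the −log10 q without decimals and was not used. These belong to single peaks and were used to describe and filter peaks.

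Lists were merged at an overlap of 1 bp, and each region takes the strongest peak per list. The whole-number pileup and the local background were solved from fold, as (pileup + 1) over (background + 1), and p, as a Poisson tail, within 0.002 of −log10 p. Every H4K8la peak had a solution. The most frequent local background of a list was taken as genome-wide. This reading is inferred from the values; an IgG library may have entered it. The search and the merging were tested on simulated data. Positions count from 1.

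Members and lists were chosen with earlier results of these data known. Named regions are the 8 members with the strongest weaker peak, the 4 largest rises and 4 largest falls in fold among members with a −log10 q of at least 5 in 1 library, the most remote and the 2 widest. Alternatives were stricter thresholds, joining over 500 bp, overlap of at least 50%, distance from other marks and the genome-wide scale. No genome of build rn7 was used here, so sequences and genes were not analysed here. Python 3.11.15, numpy 2.4.6, pandas 2.3.3, scipy 1.17.1 and matplotlib 3.10.9 were used.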

Additional observations from a re-analysis of the deposited data

Results flagged for a closer look

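The median log2 difference in fold over local background between lactate and control was −0.0025 at the 1348 H4K8la-only regions and 0.10 at the 2208 H3K9la-only regions, so the signs were opposite. The H4K8la value is close to 0, and 50.1% of its regions were lower with lactate, against 38.0% for H3K9la and 72.6% for the H4K16la-only regions, whose median was −0.17. The difference between the marks was not tested, since each rests on 1 library per condition.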

How the results depend on the processing

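The number of H4K8la-only regions, 1348, was 494 and 115 with −log10 q thresholds of 5 and 10 for all lists, 52 and 0 with these thresholds for the H4K8la peaks alone, and 518 with no other mark within 5 kb. The limits on the H4K8la peaks and on distance select subsets by construction, and 52 of the 494 regions at the threshold of 5 for all lists were among the 1348. It was 1004 with an overlap of at least 50% and 1424 with peaks joined over 500 bp. The share without other marks, 7.31%, was 8.44% and 11.8% at the thresholds of 5 and 10 and 6.29% with the 50% overlap. The share with a lower fold with lactate, 50.1%, was 77.2% by pileup over genome-wide background, 64.7% among regions with a −log10 q of at least 5 in 1 library (a pool with more strong control than lactate peaks, 309 against 129), and 53.6% without regions of high local background, a choice made after seeing the data; the cause was not tested. The share with a narrower lactate peak, 55.1%, was 62.1% among the stronger regions. Another mark lay within 1 kb at 24.5%, and at 17.1% and 13.9% when only its control or only its lactate lists counted, as fewer lists allow. The X share of 15.3% was 14.6% to 16% under the other thresholds and overlaps tried after seeing the data, and 8% (autosomes 3.29%) where the weaker peak reached a −log10 q of 3. The rise at chromosome 2 from 45187070 turned to −0.041 by pileup over genome-wide background. No paired analysis was possible because each group is 1 library.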
